A study of Mus musculus with 3 samples.

Results

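The genes described here encode the working parts of the lysosome, namely the cathepsins, the subunits of the vacuolar ATPase (V-ATPase) and the lysosome-associated membrane proteins (LAMPs). They were taken from the deposited expression table as the protein-coding genes whose symbol starts with Cts and a letter, starts with Atp6v, or is Lamp1 to Lamp5. This gave 45 of the 43346 genes of the table, made up of 19 cathepsin genes, 13 genes for the V1 sector and 9 genes for the V0 sector of the V-ATPase, and 4 LAMP genes. RNA sequencing was done on 3 libraries of mesenchymal stem cells (MSCs), stromal precursors that attach to plastic. The donors were adult C57BL/6 mice, the tissue was fat pad, and the cells were cultured in advanced MEM with FBS. All 3 libraries form a single group with no treatment, genotype or control to set against it, so no comparison between conditions was possible. Whether each library stands for its own mouse or culture is not in the labels, so the spread between them may be technical. All 6 mesenchymal markers examined were detected, against 47.4% of all protein-coding genes. They ran from Itgb1 at 329 ± 13.0 RPKM to Eng at 13.9 ± 0.573 RPKM.

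Lysosomes break down material delivered by endocytosis and autophagy. The V-ATPase pumps protons into their lumen: its V1 sector on the cytosolic side splits ATP, and its V0 sector in the membrane carries the protons. The acid activates the cathepsins, proteases of the cysteine, aspartic and serine classes, and the heavily glycosylated LAMPs line the membrane. Mesenchymal cells and fibroblasts also use cathepsins to turn over collagen and other matrix proteins. Many lysosomal genes are known to carry in their promoters a form of the E-box CACGTG that is bound by the transcription factor TFEB and its relatives.

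Levels are given as RPKM, the reads of a gene divided by the length of its model and by the library total, as the mean ± SD over the 3 libraries (n = 3). A gene counted as detected when each of the 3 libraries gave it an RPKM of at least 1. By this rule 28 of the 45 genes (62.2%) were detected, against 47.4% of the 22032 protein-coding genes of the table. Among them were 11 of the 19 cathepsins, 8 of the 13 V1 genes, 7 of the 9 V0 genes and 2 of the 4 LAMP genes. 15 of the 45 lay among the highest 10.0% of protein-coding genes by mean RPKM (17.2 or more), a class that holds 10.0% of protein-coding genes by construction. The 17 genes that were not detected stayed at or below 0.640 RPKM in every library, while the lowest detected gene, Ctso, had a mean of 1.28 RPKM. In the order of the 28 detected genes by mean level, 7 of the 27 neighbouring pairs had ranges over libraries that overlapped and 20 did not. The median log2(RPKM + 1) was 2.87 ± 0.08 over all 45 genes and 0.85 ± 0.00450 over all protein-coding genes (SD over libraries, n = 3).

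**Figure D1:**
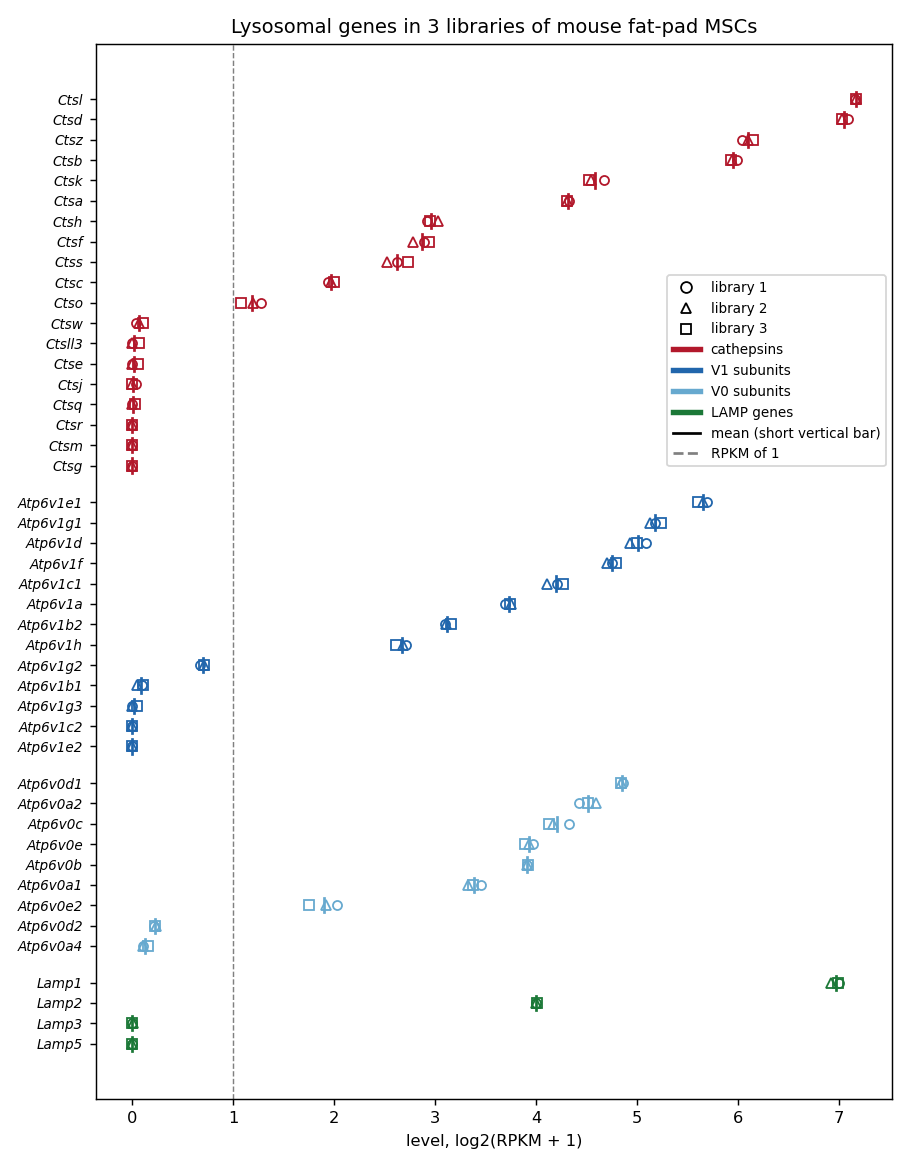
Level of each of the 45 genes in each of the 3 libraries (symbols) with the mean (short vertical bar), on the log2(RPKM + 1) scale; genes run down the page by group and the dashed line marks an RPKM of 1. Ctsl, Ctsd and Lamp1 lie farthest right, and each group has genes at or near 0.

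The highest genes of the set were the cysteine protease gene Ctsl, the aspartic protease gene Ctsd and Lamp1, which all ranked in the top 1% of protein-coding genes (top 0.799%, 0.908% and 0.994%). Ctsl (ENSMUSG00000021477, chr13:64359337-64370890, minus strand, mm10) had 141, 142 and 143 RPKM in libraries 1, 2 and 3. Ctsd (ENSMUSG00000007891, chr7:142375911-142388038, minus strand) had 135, 129 and 129 RPKM. Lamp1 (ENSMUSG00000031447, chr8:13159161-13175338, plus strand) had 127, 120 and 126 RPKM in the same order. The lowest library of Ctsl was above the highest of Ctsd, and the lowest of Ctsd was above the highest of Lamp1. Their ranks were 176, 200 and 219 among the 22032 protein-coding genes.

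The promoters of these genes were examined for E-boxes, because the sequence is shared by lysosomal genes and was not used to choose them. RefSeq promoter windows (GRCm38.p6, the mm10 assembly, 250 bases before to 50 after the start used by RefSeq) were matched by symbol for 35 of the 45 genes. That start can differ from the end of the gene model given by the coordinates in this text. The hexamer CACGTG, which reads the same on both strands, was in the window of 10 of the 35 genes (28.6%). It was in 8.09% of all 27025 genes with a window and 9.2% of the 15855 protein-coding genes with a window. Among detected genes, 9 of the 21 with a window held the hexamer (42.9%), against 12.5% of the 7853 detected protein-coding genes with a window. The octamer TCACGTGA, which contains the hexamer, was in 5 of 35 (14.3%), against 1.12% of all genes and 1.47% of protein-coding genes. All 5 were among the 21 detected genes (23.8%), against 2.5% of detected protein-coding genes. A longer form, with a G before and a C after the octamer, was in none of the 35, against 0.37% of all genes and 0.942% of detected protein-coding genes. A match is a description of these letters and not a measured binding site. The Lamp1 window is shown because it holds 4 copies of CACGTG within 52 bases, a number of copies reached by 6 of the 27025 genes. The stretch printed is the 80 bases just before its start (chr8:13159081-13159160, plus strand), with each hexamer in capitals:
Lamp1: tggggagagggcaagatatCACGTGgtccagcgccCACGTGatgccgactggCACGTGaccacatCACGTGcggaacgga
The 5 genes with the octamer are shown next, each as 30 bases with the octamer in capitals, to let the letters beside it be compared. They come from chr7:142387908-142387937 (minus strand) for Ctsd, chr2:164833749-164833778 (plus) for the first and chr2:164833766-164833795 (plus) for the second Ctsa match, chr8:105566050-105566079 (minus) for Atp6v0d1, chr17:26676387-26676416 (plus) for Atp6v0e and chr16:44139373-44139402 (minus) for Atp6v1a:
Ctsd: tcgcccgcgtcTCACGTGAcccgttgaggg
Ctsa, first match: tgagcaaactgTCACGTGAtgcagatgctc
Ctsa, second match: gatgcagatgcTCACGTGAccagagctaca
Atp6v0d1: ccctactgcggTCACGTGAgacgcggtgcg
Atp6v0e: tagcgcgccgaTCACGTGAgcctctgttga
Atp6v1a: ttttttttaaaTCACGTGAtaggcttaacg
The octamers of Ctsa, Atp6v0d1 and Atp6v0e were centred within 9 bases of the RefSeq start. That of Ctsd was centred 95 bases before it and that of Atp6v1a 128 bases before it. The windows of Ctsa, Atp6v0e, Atp6v1a and Ctsl lay wholly inside the gene model. For Atp6v0e the window was chr17:26676146-26676445 and the model chr17:26663231-26699647. The hexamer alone was found in Ctsl, Ctsf, Atp6v0b, Ctsll3 and Lamp1. Of these 10 genes all but Ctsll3 were detected, and 21 of the 35 genes with a window were detected. Among protein-coding genes of the table, 979 of the 1458 with CACGTG in the window were detected. Of all 15855 protein-coding genes with a window, 7853 were detected. Among the 21 detected genes with a window, the median level was 18.8 RPKM for the 9 with CACGTG and 16.2 RPKM for the 12 without it.

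Among the cathepsins, 4 genes made up 86.2 ± 0.216% of the summed RPKM. Ctsl accounted for 30.5 ± 0.373%, Ctsd for 28.2 ± 0.553%, Ctsz for 14.5 ± 0.593% and Ctsb for 13.1 ± 0.208%. Ctsz encodes a carboxypeptidase of the cysteine class and stood at 67.4 ± 2.48 RPKM, with 64.8, 67.6 and 69.7 RPKM in libraries 1, 2 and 3. Ctsb encodes a cysteine protease that also trims peptides from their C-terminal end, and stood at 60.9 ± 1.252 RPKM, with 62.3, 60.4 and 59.9 RPKM. The 3 values of Ctsz all lay above the 3 values of Ctsb, but per kilobase of the principal transcript (a scale described with the LAMP genes) the order turned, with Ctsz at 67.4 ± 2.48 and Ctsb at 77.6 ± 1.597. The level of Ctsb was 0.428 ± 0.0115 times that of Ctsl and that of Ctsd was 2.16 ± 0.0161 times that of Ctsb.

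A middle tier held the collagen-degrading cysteine protease gene Ctsk at 22.9 ± 1.32 RPKM and Ctsa, whose product is a serine carboxypeptidase that also protects other lysosomal enzymes, at 18.8 ± 0.165 RPKM. Ctsk is best known from osteoclasts, the cells that resorb bone. It had 24.4, 22.3 and 22.04 RPKM in libraries 1, 2 and 3 and lies on chromosome 3 next to Ctss, the gene of a protease prominent in antigen-presenting cells. Ctss had 5.14, 4.73 and 5.66 RPKM, below Ctsk in each library, and the level of Ctsk was 4.45 ± 0.481 times that of Ctss. Both genes are on the plus strand (Ctsk at chr3:95499256-95509362, Ctss at chr3:95526786-95556403), 17423 bases apart, and no gene of the table lies wholly between them.

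Markers of the cell types in which Ctsk and Ctss are prominent were then examined. 2 of the 8 osteoclast markers were detected, Itgb3 at 2.59 ± 0.156 RPKM and Acp5 at 1.22 ± 0.130 RPKM, and the summed level of all 8 ranged from 4.23 to 4.50 RPKM over libraries. The osteoclast genes Calcr, Ocstamp and Dcstamp stayed at or below 0.0174 RPKM and were at 0 in at least 1 library each. 7 of the 14 macrophage markers were detected, and 47.4% of all protein-coding genes were detected by the same rule. Lyz2 was the highest of these markers at 26.2 ± 1.51 RPKM, a level above that of Ctsk. The others detected were C1qb at 4.32, Cd68 at 3.42, C1qa at 3.05, Fcer1g at 2.13, C1qc at 2.01 and Csf1r at 1.90 RPKM. The summed level of all 14 ranged from 46.7 to 49.9 RPKM. The pan-leukocyte gene Ptprc had 0.144, 0.133 and 0.131 RPKM, and Cd163 was at 0 in libraries 1 and 2. What part macrophages or osteoclasts had in the levels of Ctsk and Ctss was not tested. In such bulk samples fewer cells of a type and less RNA per cell cannot be told apart.

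The other detected cathepsins had lower RPKM than Ctsa. The aminopeptidase gene Ctsh had 6.56, 7.13 and 6.72 RPKM in libraries 1, 2 and 3, and the cysteine protease gene Ctsf had 6.398, 5.85 and 6.66 RPKM, so that their ranges overlapped. Per kilobase of the principal transcript Ctsh stood at 18.9 ± 0.821, Ctsf at 16.04 ± 1.05 and Ctsc at 6.79 ± 0.197. As RPKM, Ctsc, whose product activates the serine proteases of immune cell granules, stood at 2.91 ± 0.0847 RPKM and Ctso at 1.28 ± 0.154 RPKM. Markers of cytotoxic lymphocytes and neutrophils, granule proteases among them, were examined beside Ctsc, Ctsg and Ctsw. None of the 7 markers of these cells was detected, against 47.4% of all protein-coding genes, and their summed level was 0.0666 to 0.122 RPKM.

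8 cathepsin genes were not detected. Ctsw, the cathepsin gene of cytotoxic lymphocytes, had 0.0282, 0.0492 and 0.0760 RPKM. The aspartic protease gene Ctse was at 0 in libraries 1 and 2 and at 0.0394 RPKM in library 3, and the neutrophil protease gene Ctsg was listed at 0 in all 3. The remaining 5, Ctsj, Ctsm, Ctsq, Ctsr and Ctsll3, belong to a rodent family of cathepsin L relatives, the first 4 of which are known from the placenta. They lie between positions 60798250 and 61541839 of chromosome 13 (mm10), 2817497 bases from the end of that stretch to Ctsl, and none exceeded 0.0469 RPKM. Genes of this family resemble each other closely, so single reads among them cannot be assigned with certainty. For the 6 genes of the whole set at 0 in all 3 libraries (Ctsg, Ctsm, Ctsr, Atp6v1c2, Atp6v1e2 and Lamp5), the level of 3 reads was 0.0310 to 0.101 RPKM depending on gene and library, counting error only.

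At least 1 gene for every subunit type of the V-ATPase was detected. In the V1 sector the highest was Atp6v1e1, for the E subunit of the peripheral stalk, with 50.5, 49.3 and 47.7 RPKM. Its stalk partner, the G subunit gene Atp6v1g1, had 35.3, 33.9 and 36.7 RPKM. The central stalk genes Atp6v1d and Atp6v1f stood at 31.1 ± 1.79 and 25.9 ± 0.776 RPKM. The stalk genes were above the genes for the catalytic head on this scale. Atp6v1a, for the A subunit that splits ATP, stood at 12.3 ± 0.314 RPKM, and Atp6v1b2, for the B subunit that pairs with it, at 7.69 ± 0.174 RPKM. Atp6v1c1, whose C subunit links the sectors and is released when the pump comes apart, stood at 17.3 ± 0.957 RPKM. Atp6v1h, for the regulatory H subunit, was the lowest detected V1 gene at 5.36 ± 0.222 RPKM.

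In the V0 sector Atp6v0d1, for the d subunit that connects the rotor to the stalk, was the highest with 27.98, 27.6 and 27.7 RPKM. The proton-carrying ring is encoded by Atp6v0c and Atp6v0b, which stood at 17.5 ± 1.34 and 14.1 ± 0.0682 RPKM. The a subunit forms the proton path through the membrane and steers the pump to different compartments, and it is encoded by 4 genes, one of which, Tcirg1 (a3), falls outside the naming rule. Atp6v0a2 (a2) had 20.5, 23.1 and 21.9 RPKM, Atp6v0a1 (a1) had 9.98, 9.01 and 9.36 RPKM, and Tcirg1 had 7.06, 6.68 and 6.82 RPKM. These ranges did not overlap. Of the summed RPKM of the 4 genes Atp6v0a2 made up 57.1 ± 2.46%, Atp6v0a1 24.8 ± 1.68% and Tcirg1 17.9 ± 0.784%. Atp6v0a1 stood at 0.435 ± 0.0486 times the level of Atp6v0a2. The fourth, Atp6v0a4 (a4), is the form of the kidney and inner ear and had 0.0897 ± 0.0203 RPKM.

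**Figure D2:**
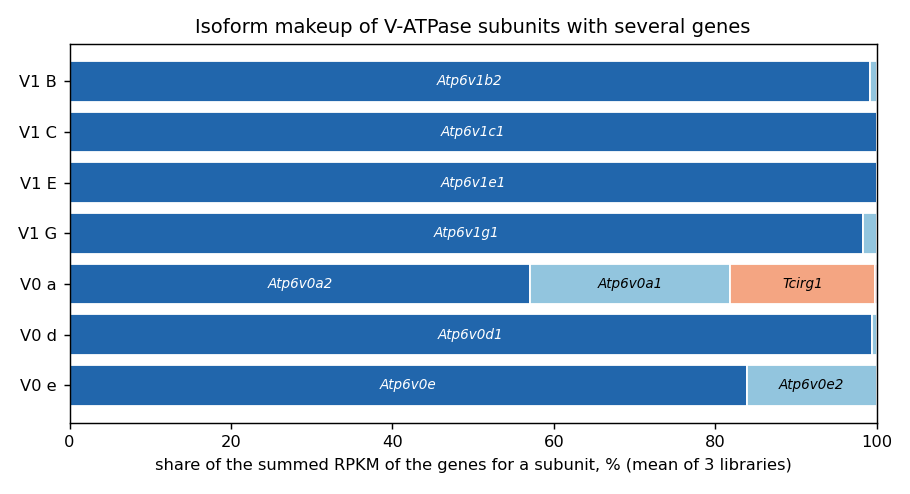
Share of each gene in the summed RPKM of the genes for a V-ATPase subunit, mean of 3 libraries in percent (horizontal axis), for the 7 subunits encoded by several genes (vertical axis). A single gene fills over 98% of the bar for V1 B, C, E and G and for V0 d, whereas V0 a is divided among Atp6v0a2, Atp6v0a1 and Tcirg1.

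For the other subunits with several genes, 1 form made up most of the RNA. Atp6v1b2 made up 99.2 ± 0.330% of the B subunit, Atp6v1g1 98.2 ± 0.0991% of G, and Atp6v0d1 99.4 ± 0.0260% of d. Atp6v1c2 and Atp6v1e2 were listed at 0 in all 3 libraries, so the C and E subunits were represented by Atp6v1c1 and Atp6v1e1 alone. The e subunit was the next most mixed after a, with Atp6v0e at 14.2 ± 0.414 RPKM (83.9 ± 1.36%) and the detected second form Atp6v0e2 at 2.74 ± 0.352 RPKM (16.1 ± 1.36%). The minor forms are known from particular tissues. Atp6v1b1 and Atp6v1g3, of the acid-secreting intercalated cells of the kidney, had 0.0616 ± 0.0264 and 0.0110 ± 0.0191 RPKM. None of the 4 intercalated cell markers was detected, against 47.4% of all protein-coding genes. Atp6v0d2, prominent in osteoclasts, had 0.172 ± 0.00624 RPKM, which corresponds to 13, 16 and 15 inferred reads in libraries 1, 2 and 3. Atp6v1g2, a form of neurons, stood at 0.623 ± 0.0248 RPKM or 43, 53 and 51 inferred reads.

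The LAMP genes differed widely. Lamp1 and Lamp2 encode the most abundant glycoproteins of the lysosomal membrane, and Lamp2 gives rise to several splice forms, one of which takes part in chaperone-mediated autophagy. Lamp2 (chrX:38401357-38456454, minus strand) had 14.96, 14.93 and 15.07 RPKM, and Lamp1, whose promoter stretch is printed above, was 8.31 ± 0.227 times as high. Dividing the same reads by the length of the principal annotated transcript, in place of the whole gene model, gave 149 ± 4.41 for Lamp1 and 39.7 ± 0.189 for Lamp2, and a ratio of 3.76 ± 0.103. Lamp1 was the higher of the pair in 3 of 3 libraries on both scales. Lamp3, the form of mature dendritic cells, had 0.00907 RPKM in library 2 (1 inferred read) and 0 in the others, and Lamp5, a form of neurons and plasmacytoid dendritic cells, was listed at 0.

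The differences within 12 pairs of related genes (Lamp1 and Lamp2, Ctsb and Ctsl, Ctsd and Ctsb, Ctsk and Ctss, and 8 pairs of V-ATPase forms) were put to a two-sided exact sign-flip permutation test on log2(RPKM + 1) within each library. In each pair the same gene was higher in 3 of 3 libraries. Each exact permutation test gave p = 0.25 and an adjusted p = 0.25, the smallest that 3 libraries allow, so no pair could pass a threshold of 0.05. The differences ranged in size from 1.10 ± 0.01 for Ctsd minus Ctsb to 4.62 ± 0.02 for Atp6v0d1 minus Atp6v0d2 among pairs with no member listed at 0. Pairs with a gene near 0 depend on the pseudocount: with 0.1 in place of 1, Atp6v0d1 minus Atp6v0d2 was 6.68, and Atp6v1b2 minus Atp6v1b1 was 5.61 in place of 3.03. On the transcript-length scale Atp6v0a1 minus Atp6v0a2 was -0.79, against -1.13 on the deposited scale.

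The spread between libraries was small for most of the detected genes on the deposited scale. The RPKM of all genes summed to 2569320, 2974460 and 2991480 in libraries 1, 2 and 3, and the coefficients below were not rescaled to equal sums. The median coefficient of variation was 3.34% over the 28 detected genes and 4.95% over all detected protein-coding genes. The table gives no read counts, and reads were inferred from the step size of its low values, which gave 28801600, 32973000 and 32012200 reads as scaling totals for libraries 1, 2 and 3. With these the 28 genes rested on a mean of 203 to 28830 reads per library. The coefficient of variation was at or below the counting error for 7 of the 28 genes and above 2 times that error for 11. The median ratio of spread to counting error was 1.70, against 1.58 over detected protein-coding genes with a length. 2 of the 28 genes, Atp6v0e2 and Ctso, had a highest library at least 25% above the lowest, against 11.0% of detected protein-coding genes. Atp6v0e2 had 3.07, 2.78 and 2.37 RPKM and Ctso 1.42, 1.29 and 1.12 RPKM in libraries 1, 2 and 3, on a mean of 203 reads for Atp6v0e2 and about as many for Ctso, for which counting error alone is 7.02% and 7.01%. Their coefficients of variation were 12.8% and 12.1%. Without library 1 or without library 3 neither gene reached that margin.

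**Figure D3:**
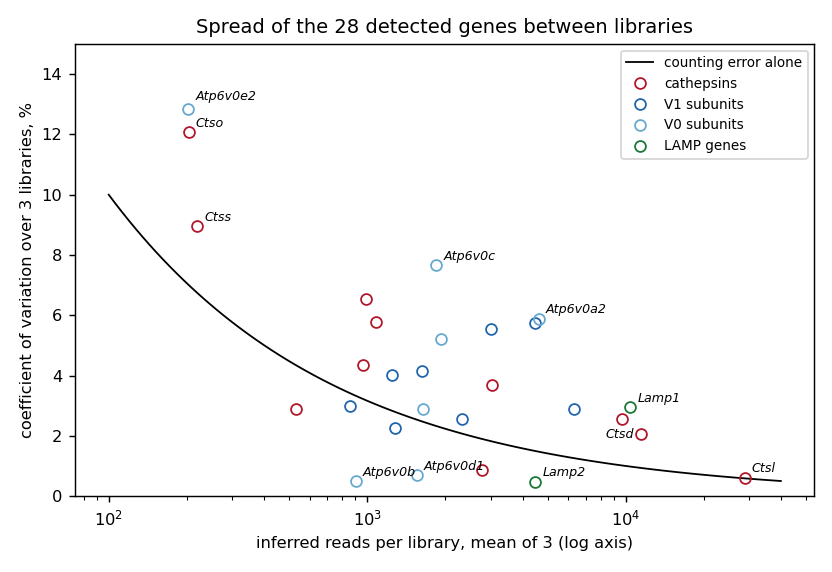
Coefficient of variation over the 3 libraries in percent (vertical axis) against the mean inferred reads per library (horizontal log axis) for the 28 detected genes, coloured by group; the line is the spread that counting error alone would give. Atp6v0e2 and Ctso lie highest, and Ctsl lies at the lower right near the line.

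Other genes of the lysosome were examined from lists of genes with known roles. The counts detected in these lists stand beside 47.4% detected among all protein-coding genes. All 32 lysosomal hydrolase genes were detected, among them the sphingolipid activator gene Psap at 131 ± 1.74 RPKM, near the level of Ctsd, and the serine carboxypeptidase gene Scpep1 at 37.6 ± 1.77 RPKM, with Dnase2a the lowest at 1.79 ± 0.208 RPKM. Their median log2(RPKM + 1) was 3.34 ± 0.01, against 0.85 ± 0.00450 over all protein-coding genes. 17 of the 20 other lysosomal membrane genes were detected, led by the tetraspanin gene Cd63 at 240 ± 4.72 RPKM, above Lamp1 in each library, then Scarb2, the receptor that carries glucocerebrosidase to the lysosome, at 116 ± 0.811 RPKM, and Laptm4a at 98.8 ± 2.77 RPKM. Cln3 was the lowest at 0.359 ± 0.111 RPKM.

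All 12 accessory and assembly genes of the V-ATPase were detected, with the accessory subunit genes Rnasek at 21.6 ± 0.704, Atp6ap1 at 21.3 ± 0.524 and Atp6ap2 at 8.58 ± 0.456 RPKM as the 3 highest and the assembly factor gene Vma21 the lowest at 2.11 ± 0.0979 RPKM. 5 of the 7 cathepsin inhibitor genes were detected, against 47.4% of all protein-coding genes. The secreted inhibitor gene Cst3 (cystatin C) stood at 84.8 ± 0.885 RPKM, Cstb (cystatin B, a cytosolic inhibitor) at 46.8 ± 6.58 RPKM and the serpin gene Serpinb6a at 40.6 ± 2.04 RPKM, while Cst7 was listed at 0. All 10 sorting genes were detected, led by the retromer gene Vps35 at 32.9 ± 0.711 RPKM, the mannose 6-phosphate receptor gene M6pr at 29.2 ± 0.917 RPKM and its larger counterpart Igf2r at 16.4 ± 0.556 RPKM, with Gga2 the lowest at 2.57 ± 0.141 RPKM.

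14 of the 18 genes for regulators of lysosomal gene expression and nutrient sensing were detected, against 47.4% of all protein-coding genes. Of the transcription factors that bind the E-box form described above, Tfe3 was the highest at 4.995, 4.67 and 4.44 RPKM in libraries 1, 2 and 3. Tfeb had 1.28, 1.20 and 0.865 RPKM, Mitf 0.983, 0.986 and 1.0 RPKM, and Tfec 0.722, 0.954 and 0.790 RPKM, so these 3 fell short of an RPKM of 1 in at least 1 library each. The values of Tfe3 were above those of the other 3 in every library. The scaffold gene Lamtor1, which anchors the nutrient sensing complex on the lysosome, was the highest of the list at 38.9 ± 1.90 RPKM, followed by the GTPase gene Rraga at 21.2 ± 1.45 RPKM and Lamtor3 at 18.2 ± 0.991 RPKM, and Rragd was the lowest at 0.155 ± 0.0356 RPKM.

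**Figure D4:**
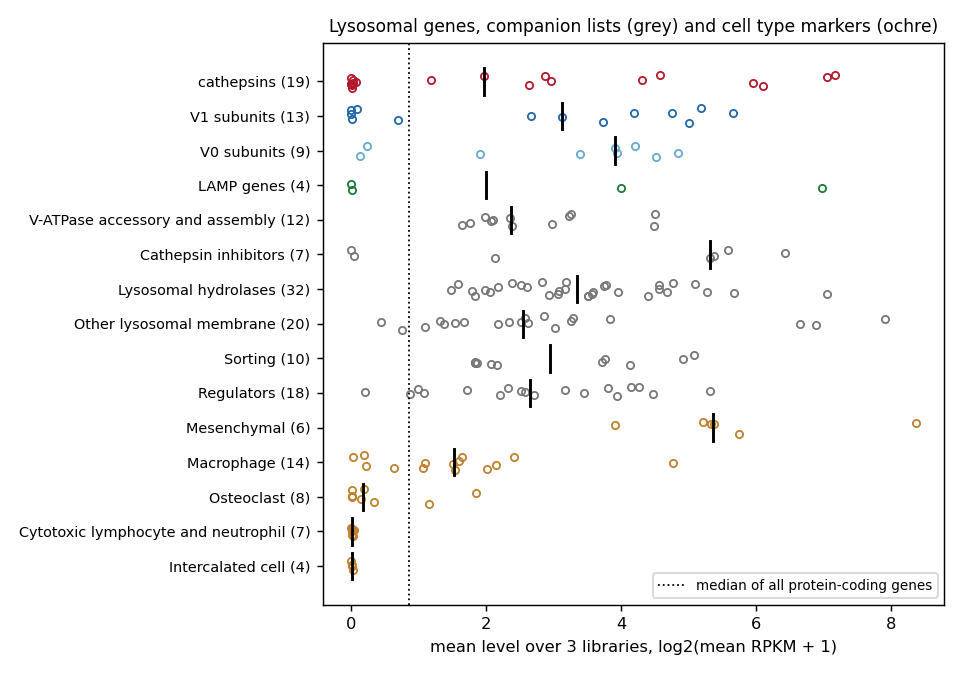
Mean level of each gene as log2(mean RPKM + 1) (horizontal axis) for the 4 groups of the set, the companion lists and the cell type marker lists, with the number of genes in brackets and the median as a black bar; the dotted line is the median of all protein-coding genes. The medians of the 4 groups, the companion lists and the mesenchymal and macrophage markers lie right of the line. Those of the osteoclast, lymphocyte and neutrophil, and intercalated cell markers lie left of it.

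The levels depended on the length by which reads were divided. Per kilobase of the principal transcript, the order within the V1 sector changed. In the GENCODE M21 annotation the gene model is 4.76 times as long as that transcript for Atp6v1h, 3.13 times for Atp6v1e1 and 2.70 times for Atp6v1c1. Atp6v1c1 rose to 46.8 ± 2.59, whereas Atp6v1g1, whose model and transcript have the same length, stayed at 35.3 ± 1.42. Atp6v1g1 thus fell below Atp6v1f at 39.1 ± 1.17 and Atp6v1d at 39.04 ± 2.24. Atp6v1e1 then stood at 154 ± 4.46, the highest of the 45 genes and close to Ctsl at 149 ± 0.913 and Lamp1, with Ctsd at 145 ± 3.73. This top rank depends on which transcript is taken as principal, here 1312 bases for Atp6v1e1 and 6168 bases for Ctsl. Atp6v1h stood at 25.5 ± 1.06, above Atp6v1a at 17.5 ± 0.448 and Atp6v1b2 at 14.4 ± 0.327. In the V0 sector Atp6v0c stood at 50.1 ± 3.84, above Atp6v0d1 at 30.6 ± 0.210. Atp6v0a2 remained above Atp6v0a1, at 27.5 ± 1.62 against 15.5 ± 0.806.

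**Figure D5:**
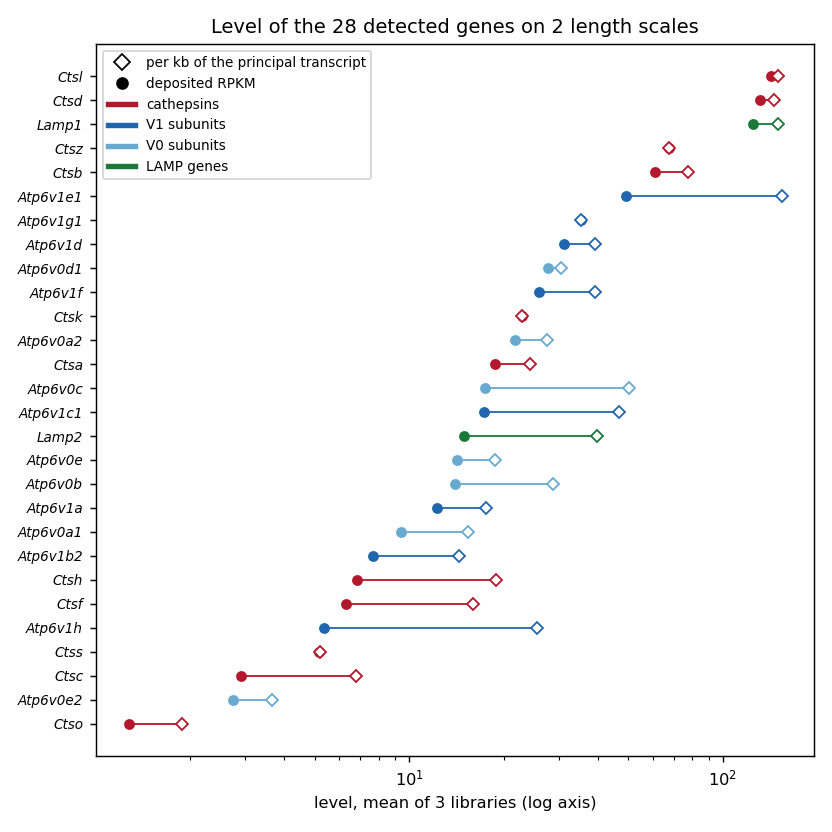
Mean level over 3 libraries (horizontal log axis) of the 28 detected genes, as reads per kilobase of the principal annotated transcript (open diamonds) and as deposited RPKM (filled circles). The lines are longest for Atp6v1h, Atp6v1e1, Atp6v0c, Ctsh, Atp6v1c1 and Lamp2.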

How the data were processed

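The deposited file is a table of RPKM values by gene and library, per the file headers. The submitters' processing notes name mm10 as the build; aligner, counter and annotation release were not given in the sources used here. RNA was purified with the miRNeasy kit and libraries were made with the TruSeq V2 kit, per the labels' protocols. Columns were matched to samples by replicate number. All 45 genes matched GENCODE M21 by identifier, which supplied coordinates and exon lengths and may differ from the authors' gene models. Library totals were inferred as those at which low values give whole reads: of 3776 protein-coding genes below 10 reads, 74.7% were within 0.05 of whole reads in each library. Intervals of 3 reads and counting errors cover counting error only. The principal transcript was the longest with an APPRIS principal tag. Promoter windows came from RefSeq (GRCm38.p6); for 30 of the 35 genes the bases just after the start were found in a GENCODE transcript. Every gene of the set is named; of the companion lists the 3 highest and the lowest, and the TFEB family, are named, except 1 gene not reported here. Members, lists and pairs were chosen with earlier results of these data known. The inference of totals and the spread calls were tried on simulated data. The simulation used the same gene lengths as the inference, so it did not cover gene models that differ from those of the authors. Python 3.11.15, numpy 2.4.6, pandas 2.3.3 and matplotlib 3.10.9 were used.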

Additional observations from a re-analysis of the deposited data

How the results depend on the processing

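No comparison between conditions, paired or not, was possible because the design has a single group. The only paired test was that of related genes within each library. The counts of detected genes stayed within 1.5 times of the values reported under RPKM thresholds of 0.5 and 3, rescaling to a sum of 1000000 per library (TPM scale), the transcript-length scale, which was chosen after seeing the data, and without each library in turn. Against detected protein-coding genes alone, 7 in place of 15 genes lay among the highest 10.0%. The median log2(RPKM + 1) of the whole set, cathepsins, V1, V0 and LAMP genes was 2.87, 1.97, 3.12, 3.90 and 2.0. With a pseudocount of 0.1 it was 2.68, 1.59, 2.96, 3.81 and 0.32. On the TPM scale, which shifts the median detected protein-coding gene by -1.50, it was 1.69, 1.02, 1.89, 2.57 and 1.33. On the transcript-length scale, which shifts that gene by 0.42, it was 4.04, 2.63, 4.21, 4.31 and 2.68. Leaving out genes below 0.1 RPKM in every library gave 4.0, 4.31, 4.19 and 5.48 for the whole set, cathepsins, V1 and LAMP genes. The count of detected genes that varied between libraries was 2, fell to 0 at a ratio of 1.5 and ranged from 0 to 2 without each library in turn. The shares of Ctsl, Ctsd, Ctsz, Ctsb and Ctsk in the cathepsin sum were 48.2%, 16.1%, 5.08%, 19.3% and 1.81% as shares of reads, and 27.9%, 27.1%, 12.6%, 14.5% and 4.28% on the transcript-length scale. All 12 pairs of related genes kept their direction on the transcript-length scale. The other alternatives (pseudocount, TPM scale and leaving out a library) could not reverse a pair, because the same gene was higher in every library. The ratio of Atp6v1g1 to Atp6v1g2 was 56.7 on the deposited scale and 34.5 on the transcript-length scale. Depth limits the statements on those undetected genes that rest on few or no reads. 12 of the 17 undetected genes were at 0 in at least 1 library. Atp6v1g2 rested on more, with 43, 53 and 51 inferred reads in libraries 1, 2 and 3.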

Other observations

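The values of a few companion and marker genes differed between the libraries. The cystatin B gene Cstb had 52.9, 39.8 and 47.7 RPKM in libraries 1, 2 and 3, while the cystatin C gene Cst3 had 85.0, 83.8 and 85.5 RPKM. The lysosomal acetyltransferase gene Hgsnat had 7.05, 8.33 and 10.8 RPKM, and the myeloid adaptor gene Tyrobp, a macrophage marker, had 0.676, 1.83 and 2.99 RPKM. The macrophage gene Lyz2 had 26.9, 24.5 and 27.2 RPKM in the same libraries. These genes were chosen after their values were seen, and the differences between libraries were not tested.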
